A study of Mus musculus with 6 samples.

Results

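This account covers 34 mouse genes of glycolysis and the hypoxia response, measured by RNA sequencing in lung fibroblasts with and without the secreted protein DKK1. They comprise glucose transporters, the enzymes that take glucose to pyruvate and lactate, lactate transporters, pyruvate dehydrogenase kinases, subunits of the hypoxia-inducible factor (HIF), its oxygen-sensing hydroxylases, and HIF targets outside glycolysis. They were listed by gene symbol for their known roles, with earlier results of these data known, and all 34 were found among the 45706 gene identifiers measured. Of these, 33 passed the filter on low counts and were tested together with the other expressed genes, 14635 in all. The gene that did not pass was Car9, with 6 to 11.24 counts in a library.

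The cells came from lungs of wild-type mice that were digested with collagenase and trypsin and cultured for 7 days in medium with 10% fetal bovine serum. The control group had 3 samples and the DKK1 group had 3 samples, the latter given the recombinant mouse protein for 24 hours at 30 ng/ml. DKK1 (Dickkopf-1) is a secreted ligand of LRP5 and LRP6, co-receptors for Wnt proteins, and limits Wnt/β-catenin signalling, and the series asks which genes respond to it in such cells. The cells were an uncloned primary culture, so other lung cells can persist in them. The strain, age and number of the mice, and the glucose and oxygen in the cultures, are not given in the sources used here. Nothing in the labels says that the samples came from separate mice or cultures, so p-values measure only the spread between these samples, which may be technical.

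Glycolysis splits glucose into pyruvate, with lactate dehydrogenase turning pyruvate to lactate when it is not burned in mitochondria, and lactate leaves the cell through proton-linked carriers. When oxygen is scarce, HIF alpha subunits escape hydroxylation by the EGLN enzymes, pair with ARNT, and raise transcription of most steps of this route. Lung fibroblasts that turn into matrix-producing myofibroblasts are known to use more glycolysis. In normal oxygen the HIF alpha proteins are degraded, so their mRNA level alone does not report their activity.

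Libraries held 22565917 to 34727102 counts, and the floor of 3 counts lay between 0.0864 and 0.133 CPM (counts per 1000000 counts of the library). Fibroblast markers summed to 10608 to 12114 CPM in control and 9987 to 11518 CPM in DKK1 samples. Within that list, Dcn and Pdgfra were called higher and Col1a1, Col1a2, Pdgfrb and Thy1 lower by edgeR with the replicate number as a block. Summed markers of most other cells were far lower, with leukocyte markers at 395 to 835 CPM (Cd3e at 0), epithelial markers at 37.9 to 127 CPM, endothelial markers at 20.5 to 62.9 CPM and mesothelial markers at 9.73 to 31.6 CPM over both groups. These 4 sums were highest in replicate 3 of both groups, the samples that the first principal component (32.9% of the variance) set apart. All 5 smooth muscle markers (Myh11, Cnn1, Des, Acta2 and Tagln) were called lower with the block, Myh11 also without it (edgeR adjusted p = 0.00387). Their sum was 8971 to 10031 CPM in control and 7676 to 8966 CPM in DKK1 samples, led by Acta2 and Tagln (means 5932 and 2460 CPM in control). Whether fibroblasts or smooth muscle cells made these transcripts was not tested. Among leukocyte markers, Itgam (mean 14.9 CPM in control and 31.5 CPM in DKK1 samples) and Adgre1 were called higher and Csf1r lower with the block, while Lyz2, the bulk of that sum, was not called. Erythroid markers summed to 0.64 to 1.43 CPM in control and 1.04 to 8.16 CPM in DKK1 samples. The mitochondrial share of counts was 1.49% to 1.55% in control and 1.63% to 1.7% in DKK1 samples. The part of these shifts in the results was not tested, and in such bulk samples a change in the number of cells of a type cannot be told apart from a change in RNA per cell.

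With DKK1, Hif1a and the lactate transporter gene Slc16a1 rose past the threshold, and most other members had small fitted changes above 0. These were the 2 of 33 tested members called by edgeR's quasi-likelihood test with the group as the only term (Benjamini-Hochberg adjusted p under 0.05), 6.06% of the members against 0.895% of all tested genes, where 0.697% were called higher and 0.198% lower. At an unadjusted p under 0.05, 16 members were higher (5.68% of all tested genes) and 2 lower (4.87%). When the replicate number was added as a block, so that same-numbered samples were compared with each other, 16 members were called higher, 48.5% against 4.96% of all tested genes. In that fit 2 members, Pfkp and Pdk4, were called lower, 6.06% against 4.46% of all tested genes, and 9.42% of all tested genes were called in either direction. The median log2 fold change was 0.09 over the 33 members and -0.00091 over all tested genes, and 26 members (78.8%) lay above 0 against 49.6% of all tested genes. Together the members took 1.39% to 1.4% of the counts in control and 1.47% to 1.5% in DKK1 samples.

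The groups did not overlap for 16 members that were higher with DKK1 (9.4% of all tested genes did the same) and for 2 that were lower (7.14% of all tested genes). Within same-numbered pairs, 24 members were higher with DKK1 in 3 of 3 pairs, as were 22.3% of all tested genes, and 3 members (Pfkp, Eno2 and Pdk4) were lower in 3 of 3, as were 19.5% of all tested genes. Of the 18 members called with the block, 10 were called in each of the 3 fits that left out one pair: Slc2a1, Pfkl, Tpi1, Pgk1, Ldha, Slc16a1, Slc16a3, Hif1a, Egln3 and Bnip3. DESeq2 called 6 members without the block (Tpi1, Ldha, Slc16a1, Hif1a, Egln3 and Bnip3) and 11 with it, all higher, so that neither lower call was shared by it. These were 18.2% and 33.3% of the tested members, against 1.39% and 2.28% of the 14635 genes called higher by DESeq2 without and with the block. Below, calls are those of edgeR unless DESeq2 is named. Leaving out pair 2 gave 11 members called by edgeR with the block, and leaving out pair 1 or pair 3 gave 17 or 15. These were not all among the 18. Without pair 1 all 17 were higher, with the calls of Gpi1, Pfkp and Pdk4 lost and Aldoa newly called (edgeR adjusted p = 0.0348).

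**Figure D1:**
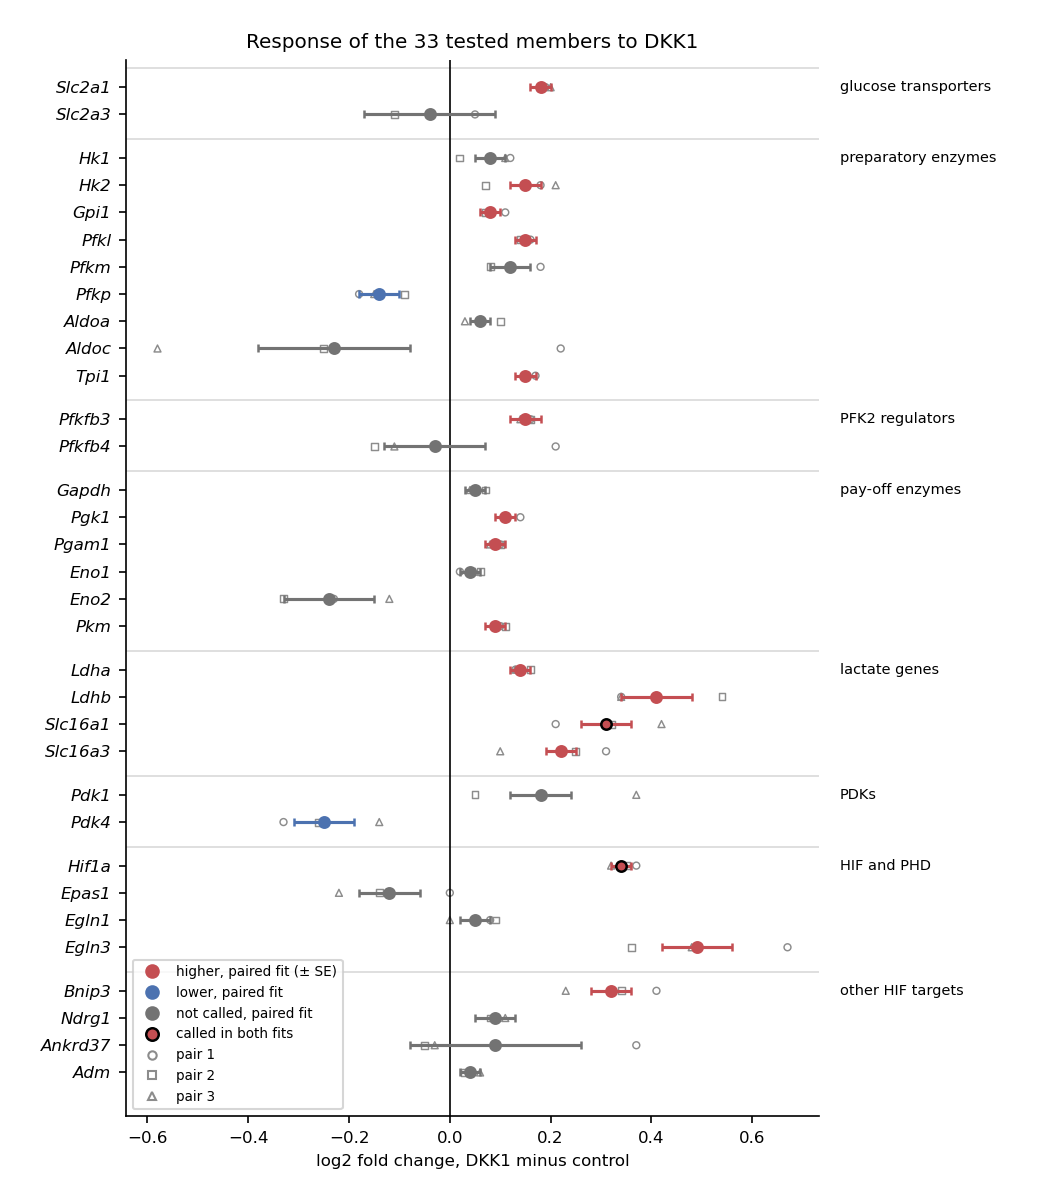
Log2 fold change (DKK1 minus control) of the 33 tested members, grouped by role, from the fit with the replicate block. Filled points with bars are the estimate ± 1 standard error, coloured by the call, open marks are the 3 same-numbered pairs, and the black rings on Hif1a and Slc16a1 mark the members called in both fits.

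The HIF alpha subunit and hydroxylase genes held the most firmly called member, Hif1a, and the one with the highest fold change, Egln3. Of the 4 genes in this role, Hif1a was called without the block, Hif1a and Egln3 were called higher with it, and Epas1 and Egln1 in neither fit. Hif1a (ENSMUSG00000021109, chr12:73901375-73947530 on GRCm38, forward strand) encodes the oxygen-regulated HIF-1 alpha subunit. Its control samples 1 to 3 measured 368, 379 and 371 CPM and its DKK1 samples 476, 482 and 462 CPM. Each DKK1 sample was thus above each control sample by a margin far wider than the spread within either group. Hif1a rose by 26.5%, or 0.34 on the log2 scale (SE 0.03), with an edgeR adjusted p of 0.00387. In the 6 fits that left out one sample it stayed called, with a log2 fold change from 0.32 to 0.36 and an adjusted p from 0.00673 to 0.0297.

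Epas1, which encodes the sister subunit HIF-2 alpha, measured 24.4, 18.9 and 26.7 CPM in control samples and 24.5, 17.1 and 22.9 CPM in DKK1 samples, and the groups overlapped. The estimate was -0.13 on the log2 scale (SE 0.15), and edgeR's adjusted p was 0.854. Replicate 2 was the lowest in both groups, so that its spread followed the replicate number more than the treatment. The ratio of Hif1a to Epas1, in counts per kilobase of merged exons, averaged 15.3 in control and 21.1 in DKK1 samples. It was higher in 3 of 3 pairs, yet the groups overlapped. The exact permutation test gave p = 0.2 (two-sided, 0.4 after adjustment over 12 ratios).

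Egln3 (ENSMUSG00000035105, chr12:54178981-54203860, reverse strand) encodes a prolyl hydroxylase that marks HIF alpha for degradation and is itself a HIF target. It measured 12.6, 13.8 and 11.6 CPM in control samples and 20.1, 17.7 and 16.2 CPM in DKK1 samples. The groups did not overlap, and replicate 3 was lowest in each. Its log2 fold change was 0.50 (SE 0.10), called by edgeR with the block (adjusted p = 0.0757 without it and 0.000621 with it) and by DESeq2 in either design (0.00796 without it and 0.0115 with it). Egln1, which encodes the main oxygen sensor of the family, measured 94.4, 93.8 and 91.9 CPM against 100, 99.5 and 91.8 CPM, with overlapping groups and no call (log2 fold change 0.05, SE 0.04, edgeR adjusted p = 0.754). The ratio of Egln3 to Egln1, also per kilobase of merged exons, went from 0.183 to 0.249 without overlap between the groups. The exact permutation test gave p = 0.1, the smallest that 3 samples against 3 allow, and 0.3 after adjustment over the 12 ratios.

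**Figure D2:**
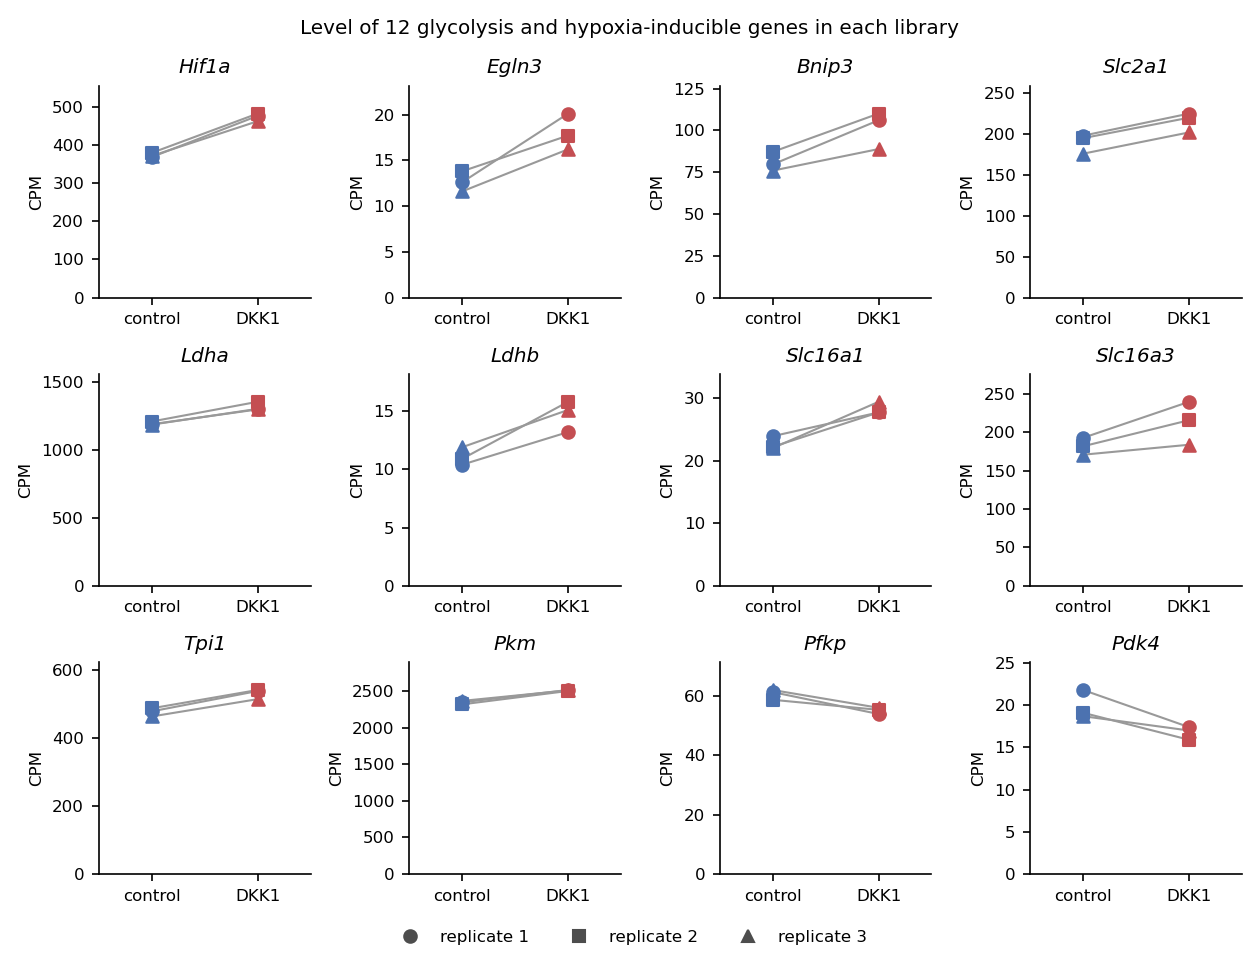
CPM in each of the 6 samples for 12 members, one panel a gene with its own axis from 0, with lines joining samples of the same replicate number. The Hif1a panel shows DKK1 samples at 462 to 482 CPM above control samples at 368 to 379 CPM, and the lines of Pfkp and Pdk4 slope down in each pair.

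Of the 4 tested HIF targets outside glycolysis, edgeR called Bnip3 alone, in the fit with the block. Bnip3 (chr7:138890836-138909519, reverse strand) encodes a mitochondrial outer membrane protein that promotes removal of mitochondria by autophagy. It measured 79.6, 87.1 and 75.9 CPM in control samples and 106, 110 and 88.8 CPM in DKK1 samples, with replicate 3 lowest in both groups and no overlap. The shift was 0.32 on the log2 scale (SE 0.09 and edgeR adjusted p = 0.182 without the block, SE 0.04 and adjusted p = 4.39e-05 with it). Bnip3 was also called without the block by DESeq2 (adjusted p = 0.0205) and by edgeR when DKK1 replicate 3 was left out (0.0339).

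Adm, which encodes the vasodilator peptide adrenomedullin and had the highest level per kilobase of these targets, measured 446, 373 and 368 CPM in control samples and 457, 380 and 384 CPM in DKK1 samples. It was higher in 3 of 3 pairs, but by so little that it was not called (log2 fold change 0.04, edgeR adjusted p = 0.947 without the block). Ndrg1, a stress-response gene, lay between 44.1 and 60.6 CPM and Ankrd37, a small ankyrin-repeat gene, between 2.22 and 2.86 CPM, each with a log2 fold change of 0.09 and no call in either fit. Exons of Ankrd37 overlap those of Ufsp2 (36.4 CPM) on the opposite strand, so its low counts are uncertain. Car9, which encodes the cell-surface carbonic anhydrase used as a hypoxia marker, measured 0.355, 0.354 and 0.496 CPM in control samples and 0.314, 0.23 and 0.26 CPM in DKK1 samples, close to the floor. Its DKK1 samples lay below its control samples, but it was too low to be tested.

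All 4 lactate genes were called higher by edgeR with the block, and Slc16a1 was called without it too. DESeq2 called Ldha and Slc16a1 without the block, and Ldha and Slc16a3 with it. Slc16a1 (ENSMUSG00000032902, chr3:104638668-104658462, forward strand) encodes a proton-linked carrier that moves lactate and pyruvate across the plasma membrane. It measured 23.9, 22.2 and 22.0 CPM in control samples and 27.7, 27.7 and 29.4 CPM in DKK1 samples, with a clear gap between the groups. The rise was 23.9%, with a log2 fold change of 0.31 (SE 0.06 and edgeR adjusted p = 0.0485 without the block, SE 0.05 and 0.00174 with it). Without the block the call was close to the threshold and was lost on leaving out any one of the 6 samples (log2 fold change 0.28 to 0.35, adjusted p 0.0864 to 0.191) and on removing the trend with GC content and length (0.27, adjusted p = 0.124). DESeq2 called it without the block (adjusted p = 0.0263) but not with it (0.0871).

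Slc16a3 encodes the related carrier that exports lactate from highly glycolytic cells. It measured 193, 182 and 171 CPM in control samples and 240, 216 and 184 CPM in DKK1 samples, so each pair rose while the groups overlapped. Its log2 fold change was 0.22, called with the block only (edgeR adjusted p = 0.423 without it, 0.00056 with it). Without the block the value ran from 0.13, leaving out DKK1 replicate 1, to 0.32, leaving out DKK1 replicate 3. Ldha (chr7:46841475-46855627, forward strand) encodes the lactate dehydrogenase subunit that favours lactate formation. It measured 1188, 1208 and 1185 CPM in control samples and 1297, 1353 and 1301 CPM in DKK1 samples, a separation of the groups despite a shift of only 9.95%. The edgeR adjusted p was 0.114 without the block and 0.00013 with it, at a log2 fold change of 0.14 in both fits, and DESeq2 called it in either design (0.0224 without the block).

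Ldhb (chr6:142490249-142507957, reverse strand) encodes the subunit that favours the reverse reaction, lactate to pyruvate, and it shifted by 32.5%. It measured 10.4, 10.9 and 11.9 CPM in control samples and 13.2, 15.8 and 15.1 CPM in DKK1 samples, with a log2 fold change of 0.41 (SE 0.09 and edgeR adjusted p = 0.114 without the block, SE 0.07 and 0.00299 with it). The call with the block was lost without pair 2 (0.34, adjusted p = 0.077) and with DESeq2 (0.133). The ratio of Ldha to Ldhb per kilobase of merged exons went from 51.2 to 42.6. This was a change of -0.27 on the log2 scale, with no overlap between the groups. The exact permutation test gave p = 0.1, the smallest possible, and 0.3 after adjustment.

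**Figure D3:**
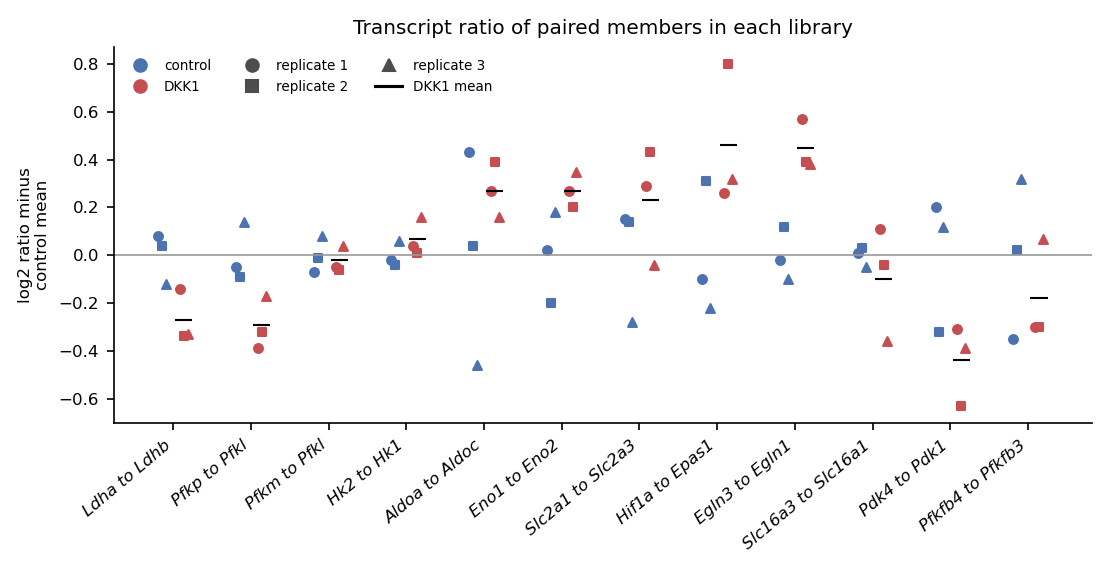
Log2 ratio of isoenzyme or partner genes per kilobase of merged exons in each sample, centred on the control mean, for 12 ratios. Control and DKK1 samples are marked apart. The groups separate for Ldha to Ldhb, Pfkp to Pfkl, Eno1 to Eno2 and Egln3 to Egln1, and overlap for the other ratios.

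The promoters of 6 members are printed to show where the core letters of the HIF response element stand in genes whose levels moved in both directions. Windows run from 250 bases before to 50 after a RefSeq transcript start (GRCm38.p6) and were available for 31 of the 34 members, as 44 windows; Slc2a3, Epas1 and Ndrg1 had no entry. The letters searched were ACGTG and GCGTG, the common forms of the element, on both strands, so that the other strand reads CACGT and CACGC, and CACGTG holds ACGTG on both strands. Capitals mark the matches. In order they are Hif1a (chr12:73907617-73907916, forward), Slc16a1 (chr3:104638414-104638713, forward), Ldha (chr7:46845554-46845853, forward), Egln3 (chr12:54203825-54204124, reverse), Bnip3 (chr7:138909457-138909756, reverse) and Pdk4 (chr6:5496229-5496528, reverse), each written 5′ to 3′ on the strand of the gene.
Hif1a: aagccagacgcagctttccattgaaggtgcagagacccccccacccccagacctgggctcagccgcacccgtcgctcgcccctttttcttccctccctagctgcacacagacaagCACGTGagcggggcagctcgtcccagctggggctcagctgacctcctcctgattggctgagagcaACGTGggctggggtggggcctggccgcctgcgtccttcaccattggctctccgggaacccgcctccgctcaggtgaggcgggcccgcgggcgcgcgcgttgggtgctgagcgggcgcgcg
Slc16a1: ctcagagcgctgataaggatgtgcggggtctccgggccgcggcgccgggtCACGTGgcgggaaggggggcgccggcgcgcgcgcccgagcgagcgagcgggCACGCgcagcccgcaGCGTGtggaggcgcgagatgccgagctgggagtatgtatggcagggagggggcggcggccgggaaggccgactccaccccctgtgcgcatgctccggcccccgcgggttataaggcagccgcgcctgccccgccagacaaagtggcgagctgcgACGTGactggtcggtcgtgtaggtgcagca
Ldha: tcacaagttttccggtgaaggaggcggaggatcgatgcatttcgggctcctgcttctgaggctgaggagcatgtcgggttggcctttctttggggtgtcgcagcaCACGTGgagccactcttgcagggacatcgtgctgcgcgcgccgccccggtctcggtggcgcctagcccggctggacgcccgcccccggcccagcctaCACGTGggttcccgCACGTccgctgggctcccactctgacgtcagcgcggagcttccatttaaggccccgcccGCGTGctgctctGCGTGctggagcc
Egln3: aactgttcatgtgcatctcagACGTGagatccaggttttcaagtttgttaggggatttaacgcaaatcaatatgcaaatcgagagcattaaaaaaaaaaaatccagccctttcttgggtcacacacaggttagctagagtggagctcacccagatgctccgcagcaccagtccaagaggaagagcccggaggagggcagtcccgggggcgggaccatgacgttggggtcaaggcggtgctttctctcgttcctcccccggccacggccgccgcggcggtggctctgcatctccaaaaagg
Bnip3: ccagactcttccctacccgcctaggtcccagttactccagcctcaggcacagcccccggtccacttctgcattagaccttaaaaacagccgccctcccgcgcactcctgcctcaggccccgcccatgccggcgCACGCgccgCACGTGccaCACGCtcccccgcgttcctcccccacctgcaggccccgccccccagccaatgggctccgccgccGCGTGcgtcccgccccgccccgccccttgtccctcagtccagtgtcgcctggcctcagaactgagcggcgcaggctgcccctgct
Pdk4: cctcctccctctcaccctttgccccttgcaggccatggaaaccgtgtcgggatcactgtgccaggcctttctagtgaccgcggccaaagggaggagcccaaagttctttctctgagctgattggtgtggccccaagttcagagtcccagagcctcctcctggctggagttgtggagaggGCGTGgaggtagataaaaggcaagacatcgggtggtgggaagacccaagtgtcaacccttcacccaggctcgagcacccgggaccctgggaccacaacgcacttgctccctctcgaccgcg
Counting both strands, the printed Ldha window held 7 matches, 5 of them ACGTG, the Slc16a1 and Bnip3 windows 5 each, the Hif1a window 3, all ACGTG, and the Egln3 window 1, also ACGTG. A further Ldha window, from a later start, is not printed and held 2 matches, neither of them ACGTG. The Pdk4 window, from a gene called lower with the block, held 1 match, of the form GCGTG. The window of Pfkp, the other gene called lower, is not printed and held 4, of the same form. Among members called higher and not printed, the windows of Tpi1 and Gpi1 held neither form, and those of Pfkl and Ldhb held GCGTG only. Either form stood in 36 of 44 member windows (81.8%), in 60.9% of windows of tested genes and in 43.8% of all 32851 windows. ACGTG alone stood in 23 member windows (52.3%), 24.7% of windows of tested genes and 19.6% of all windows. By direction with the block, either form stood in 16 of 19 windows of members called higher and 2 of 2 of members called lower, and ACGTG in 13 of 19 and 0 of 2. In the windows of the other members, either form stood in 18 of 23 (78.3%) and ACGTG in 10 of 23 (43.5%). The median GC content was 65.0% in windows of members called higher and 56.7% in those of the other members. The median GC content was 61.2% in member windows, 60.7% in windows of tested genes and 52.7% in all windows. Several members are textbook HIF targets, and a match of letters is not a bound site.

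Glucose enters fibroblasts through facilitative transporters, and of the 2 among the members, Slc2a1 and Slc2a3, Slc2a1 had by far the higher level per kilobase (54.0 against 0.502 CPM per kilobase in control samples). Slc2a1 (chr4:119108711-119137983, forward strand) encodes the broadly expressed GLUT1. It measured 198, 195 and 176 CPM in control samples and 225, 220 and 202 CPM in DKK1 samples, with replicate 3 lowest in both groups and no overlap. The rise was 13.5%, a log2 fold change of 0.18, called with the block only (edgeR adjusted p = 0.28 without it, 0.000124 with it). Slc2a3, which encodes a high-affinity transporter best known from neurons, lay between 3.14 and 4.11 CPM with overlapping groups (log2 fold change -0.04, SE 0.15).

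The 9 genes of the preparatory steps, from hexokinase to triose phosphate isomerase, held none called by edgeR without the block and 4 higher and 1 lower with it. Tpi1 encodes triose phosphate isomerase, which interconverts the products of aldolase. It measured 479, 488 and 464 CPM in control samples and 539, 542 and 515 CPM in DKK1 samples, with no overlap and a shift of 11.2% (edgeR adjusted p = 0.135 without the block, 0.000114 with it, and DESeq2 adjusted p = 0.0365 without it). Hk2, the inducible hexokinase that traps glucose in the cell, measured 140, 142 and 141 CPM in control samples and 159, 149 and 163 CPM in DKK1 samples. Its control samples were nearly identical, and the shift of 10.8% separated the groups (edgeR adjusted p = 0.179 without the block, 0.00755 with it, 0.068 with the block but without pair 3, and 0.0696 by DESeq2 with the block). Hk1, the constitutive hexokinase, lay between 132 and 152 CPM and was not called.

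Gpi1 encodes the isomerase that follows hexokinase. It measured 404, 414 and 400 CPM in control samples and 435, 435 and 423 CPM in DKK1 samples, a shift of 5.82% without overlap. It was called with the block (edgeR adjusted p = 0.404 without it, 0.0185 with it) but in none of the fits that left out one pair (0.0566 to 0.123), nor by DESeq2 with the block (0.174). Aldoa, the main aldolase and the most abundant gene of these steps per kilobase, measured 1144, 1103 and 1127 CPM in control samples and 1196, 1180 and 1155 CPM in DKK1 samples. Its groups did not overlap, and it stood just short of a call with the block (log2 fold change 0.06, edgeR adjusted p = 0.0519). Aldoc, the brain-type aldolase, was low, at 3.5 to 6.36 CPM, and was not called.

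Phosphofructokinase commits sugar to glycolysis, and with the block 1 of its 3 subunit genes was called higher, 1 lower and 1 in neither direction. Pfkl, the liver-type subunit, measured 212, 208 and 188 CPM in control samples and 236, 230 and 209 CPM in DKK1 samples, higher in each pair though the groups overlapped (log2 fold change 0.15, edgeR adjusted p = 0.447 without the block, 0.000693 with it). Leaving out control replicate 3 gave 0.09 without the block. Pfkp, the platelet-type subunit, measured 61.4, 58.8 and 62.1 CPM in control samples and 54.0, 55.4 and 56.1 CPM in DKK1 samples, so that each DKK1 sample was below each control sample. Its log2 fold change was -0.14, called lower with the block (edgeR adjusted p = 0.191 without it, 0.0232 with it), but not in the fits without a pair (0.0835 to 0.11) nor after removing the trend with GC content and length in the same fit (0.108), nor by DESeq2 with the block (0.515). Pfkm, the muscle-type subunit, measured 38.5 to 40.2 CPM in control and 41.8 to 44.2 CPM in DKK1 samples, did not overlap and was not called.

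The split among the 3 subunits depended on the length used, and the order of Pfkm and Pfkp turned with it. As shares per kilobase of merged exons, Pfkl was 65.0% ± 1.32 in control and 66.5% ± 1.09 in DKK1 samples, Pfkm 25.2% ± 0.794 and 25.3% ± 0.622, and Pfkp 9.74% ± 0.647 and 8.14% ± 0.531 (SD, n = 3). Per kilobase of median transcript length, the shares were 78.4% ± 1.32 and 81.1% ± 1.11 for Pfkl, 3.72% ± 0.138 and 3.78% ± 0.108 for Pfkm, and 17.8% ± 1.22 and 15.1% ± 1.02 for Pfkp. The ratio of Pfkp to Pfkl changed by -0.29 on the log2 scale without overlap (exact permutation p = 0.1, adjusted 0.3), whereas that of Pfkm to Pfkl changed by -0.03 with overlap (exact permutation p = 0.7). Exons of Pfkp overlap those of Pitrm1 (118 CPM) on the opposite strand and exons of Pfkm those of Senp1 (47.7 CPM). Since the strand used in counting is not given in the sources used here, reads of these neighbours may be included.

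The enzyme family encoded by Pfkfb3 and Pfkfb4 makes and removes the sugar bisphosphate that activates phosphofructokinase. Pfkfb3, the isoform with high kinase activity, measured 78.4, 66.8 and 63.7 CPM in control samples and 87.6, 74.9 and 70.4 CPM in DKK1 samples. The replicates stood in the same order in both groups and each pair rose, while the groups overlapped (log2 fold change 0.15, edgeR adjusted p = 0.664 without the block, 0.00699 with it, and 0.0951 with the block but without pair 2). Without the block the value ran from 0.06, leaving out DKK1 replicate 1, to 0.25, leaving out control replicate 1, and DESeq2 with the block did not call it (0.277). Pfkfb4 lay between 7.49 and 9.8 CPM with a log2 fold change of -0.03 and no call.

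The pay-off steps, which yield ATP, include the most abundant members per kilobase, and 3 of the 6 genes were called higher with the block and none without it. Gapdh, the dehydrogenase that opens this stage and a common reference gene, was the highest of all members at 640 CPM per kilobase in control samples. It measured 2637, 2580 and 2720 CPM in control samples and 2731, 2704 and 2787 CPM in DKK1 samples, with overlap and no call (log2 fold change 0.05, edgeR adjusted p = 0.653 without the block, 0.0941 with it). Pgk1, which makes the first ATP of the pathway, measured 767, 792 and 792 CPM in control samples and 847, 852 and 856 CPM in DKK1 samples. The groups stood apart by more than their ranges, at a log2 fold change of 0.11, called with the block (adjusted p = 0.000932 in edgeR) and not otherwise (0.15). With the trend on GC content and length removed, the log2 fold change was 0.07.

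Pgam1 encodes the mutase that follows. It measured 711, 693 and 691 CPM in control samples and 761, 743 and 732 CPM in DKK1 samples, with no overlap (log2 fold change 0.09, edgeR adjusted p = 0.322 without the block, 0.00552 with it). Pkm encodes pyruvate kinase, which makes pyruvate and ATP, and its gene total does not separate its M1 and M2 splice forms. It measured 2345, 2317 and 2364 CPM in control samples and 2513, 2500 and 2508 CPM in DKK1 samples, a gap without overlap and a shift of 6.67% (edgeR adjusted p = 0.196 without the block, 0.00164 with it). With the block but without pair 2, neither Pgam1 (adjusted p = 0.113) nor Pkm (0.0769) was called.

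The 2 enolase genes among the members, Eno1 and Eno2, were called in neither edgeR fit. Eno1, the ubiquitous form, measured 2110, 2097 and 2091 CPM in control samples and 2144, 2190 and 2165 CPM in DKK1 samples, a shift of 2.82% that still left the groups apart (edgeR adjusted p = 0.68 without the block, 0.172 with it). Eno2, the neuron-type form, lay at 8.08 to 10.5 CPM in control and 7.46 to 8.38 CPM in DKK1 samples, lower in 3 of 3 pairs (log2 fold change -0.24, edgeR adjusted p = 0.127 with the block). Without the block its value was -0.13 leaving out control replicate 2 and -0.33 leaving out control replicate 3. The log2 ratio of Eno1 to Eno2 per kilobase of merged exons went from 7.64 to 7.91 with no overlap (exact permutation p = 0.1, adjusted 0.3).

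Pyruvate dehydrogenase kinases keep pyruvate out of the mitochondrial cycle, and of the 2 among the members, Pdk4 was called lower by edgeR with the block and Pdk1 was not called. Pdk4 (chr6:5483351-5496309, reverse strand), the form known to rise with fasting and fat oxidation, measured 21.8, 19.1 and 18.7 CPM in control samples and 17.4, 15.9 and 17.0 CPM in DKK1 samples, with each DKK1 sample below each control sample. It was called lower with the block only (log2 fold change -0.25, edgeR adjusted p = 0.258 without it, 0.0185 with it), and the call was lost without pair 1 (adjusted p = 0.0947) or pair 2 (0.149) and with DESeq2 in the same design (0.526). Pdk1, the HIF-induced form, lay between 25.8 and 37.0 CPM and was higher in 3 of 3 pairs without a call (log2 fold change 0.18, edgeR adjusted p = 0.0655 with the block). Without the block its value was 0.33 leaving out control replicate 2 and 0.08 leaving out control replicate 3. The log2 ratio of Pdk4 to Pdk1 was lower in 3 of 3 pairs, with a mean difference of -0.45, but the groups overlapped (exact permutation p = 0.2, adjusted 0.4).

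Ranked by level per kilobase of merged exons in control samples, Gapdh (640 CPM per kilobase), Pkm (468), Eno1 (390), Aldoa (386), Ldha (361), Pgam1 (352) and Pgk1 (349) led. Adm followed at 244 and Tpi1 at 173, well above Hif1a at 63.2, Gpi1 at 62.9 and Slc2a1 at 54.0 CPM per kilobase. At the foot stood Slc2a3 at 0.502 and Car9 at 0.174 CPM per kilobase. The order depends on the length given to each gene, since merged exons overstate the length of genes with rare long transcripts. Hif1a ranked 10 of 34 by this level.

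**Figure D4:**
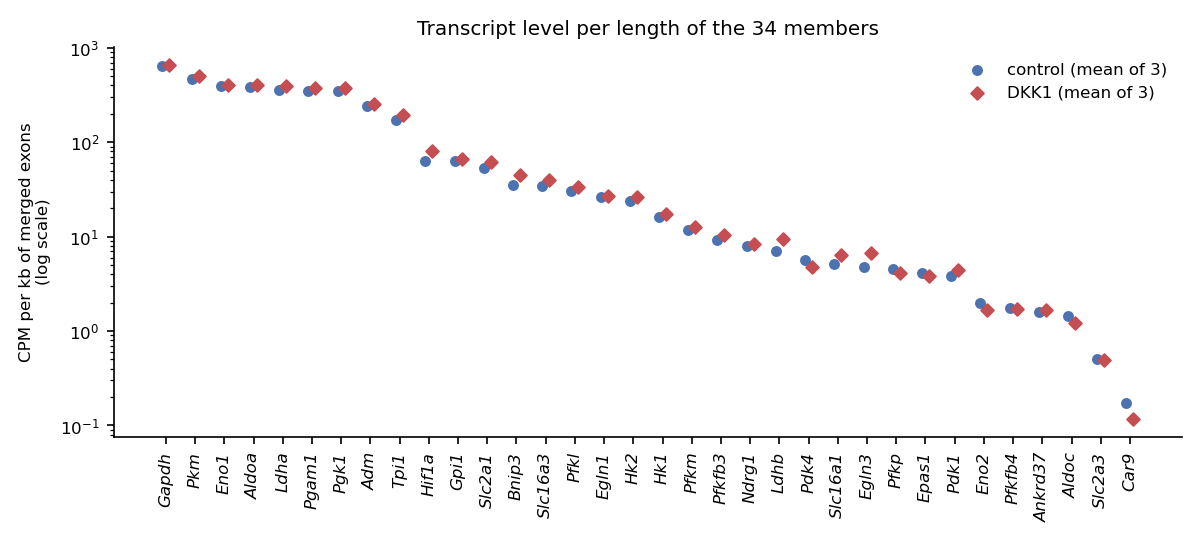
Level of the members in CPM per kilobase of merged exons, on a log axis, with control and DKK1 means, ordered by the control mean. Levels run from 640 for Gapdh to 0.174 for Car9, and the marks of the groups lie close together for nearly all members.

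Part of the spread within each group followed the replicate number. In replicate 3 of both groups, 14 of the 33 tested members had their lowest level, among them Slc2a1, Pfkl, Tpi1, Slc16a3, Egln3 and Bnip3, as did 15.3% of all tested genes. In those samples 5 members (Slc2a3, Pfkp, Aldoc, Pfkfb4 and Gapdh) had their highest level, as did 20.6% of all tested genes. Replicate 3 also had the highest sums of endothelial, epithelial, leukocyte and mesothelial markers in both groups, and the part of this in the members' levels was not tested. The median coefficient of variation of the members was 6.09% in control and 4.77% in DKK1 samples.

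Beyond the members, the other genes known to be induced by low oxygen held 1 gene called without the block, Stc1, and 13 called higher and 2 lower with it, of 37 tested, where 4.96% of all tested genes were called higher and 4.46% lower with the block. DESeq2 without the block called 7 genes of this and the 3 lists described next, against 2 by edgeR. Stc1, which encodes the secreted glycoprotein stanniocalcin-1, measured 7.98, 7.78 and 7.77 CPM in control samples and 12.1, 12.4 and 12.6 CPM in DKK1 samples. Its samples were nearly identical within each group, and the rise of 57.1% (log2 fold change 0.65, SE 0.07, edgeR adjusted p = 0.00742) was larger than that of any member. With the block only, Nt5e, the ectonucleotidase that makes adenosine, was higher by 0.52 (adjusted p = 2.42e-05), Angptl4, a lipase inhibitor, by 0.47 and Ddit4, a brake on mTOR, by 0.44 on the log2 scale in the same fit. Vldlr, a lipoprotein receptor, and Lox, a collagen cross-linking enzyme, were the 2 called lower, with log2 fold changes of -0.28 and -0.09. The median log2 fold change of the 37 genes was 0.08, against -0.00091 over all tested genes.

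The remaining genes of sugar metabolism gave a mixed picture. Of 8 pentose phosphate genes, 4 were called higher with the block and none lower (4.96% and 4.46% of all tested genes), with H6pd at a log2 fold change of 0.23, G6pdx, the entry enzyme, at 0.15 and Pgd at 0.14 leading. Of 30 other tested glycolysis and pyruvate genes, 1 was called higher with the block, Gpd2 of the glycerol phosphate shuttle at 0.23, and 2 lower, Eno3 and Pck2, the latter at -0.18. Eno3, the muscle-type enolase, was also called without the block. It measured 106, 99.2 and 102 CPM in control samples and 84.4, 85.5 and 86.5 CPM in DKK1 samples (log2 fold change -0.26, SE 0.04, edgeR adjusted p = 0.0181). The call of Eno3 was lost on leaving out control replicate 1 or 2 or DKK1 replicate 1 or 2, since no gene of these lists was then called lower. Of 10 tested regulators of HIF, Cited2, an inhibitor that competes with HIF for its co-activator, was called higher with the block at 0.09. The medians of these lists were 0.08, 0.000645 and 0.03 in the order of pentose phosphate, other glycolysis and HIF regulators. Without the block, leaving out one sample left 0 to 4 genes of all these lists called, with 0 when control replicate 2 was left out.

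**Figure D5:**
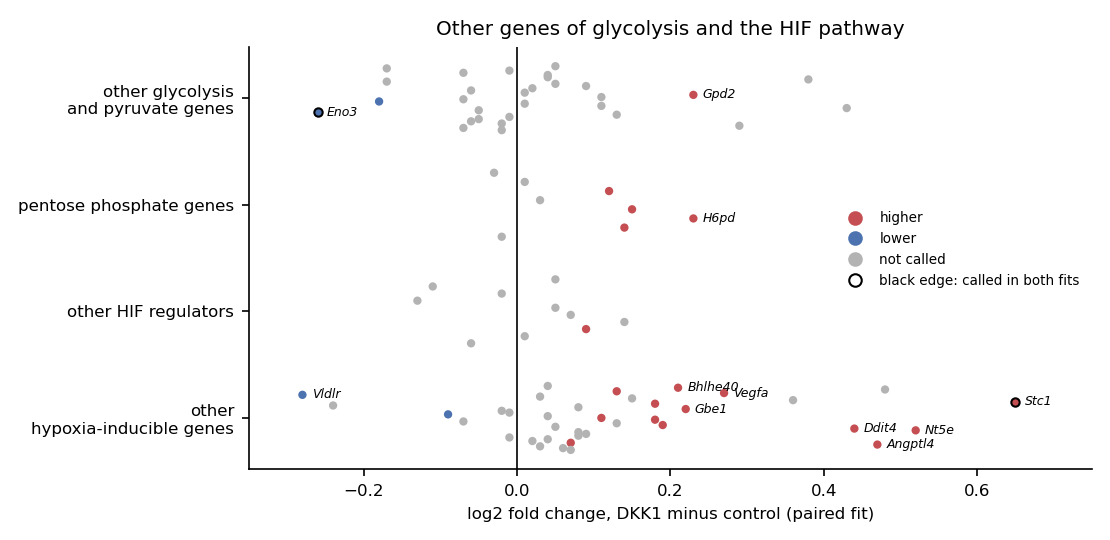
Log2 fold change with the replicate block for the tested genes of 4 further lists, a point a gene, coloured by the call in that fit and ringed where also called without the block. Stc1 at 0.65 and Eno3 at -0.26 carry the rings, and the hypoxia-inducible list holds 13 of the points called higher.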

How the data were processed

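RNA was sequenced from 6 samples of mouse lung fibroblasts. The deposited expected counts per gene, not scaled, were made by the authors with STAR and RSEM on GRCm38 (mm10), with edgeR 4.2.1 also named, per the submitters' processing notes. RSEM shares reads among similar genes, and expected counts of Gpi1, Pfkp, Pgk1, Pgam1, Pkm, Hif1a and Bnip3 were not whole in all 6 libraries, so some of their reads were shared with other genes. Annotation release and strandedness are not given in the sources used here.

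Symbols were found for 98.8% of identifiers, and lengths, coordinates and GC content came from GENCODE M21 (GRCm38). Counts were rounded, filtered with filterByExpr (minimum count 10), scaled by TMM and tested over 14635 genes with edgeR 4.0.16 (R 4.3.3) quasi-likelihood tests, two-sided, Benjamini-Hochberg adjusted, called under 0.05. SE is the absolute log2 fold change over the square root of F. CPM uses whole-library totals. The floor of 3 counts covers counting error only.

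Replicate numbers come from the sample titles. Deviations from group means of same-numbered samples correlated at 0.27, 0.23 and 0.41 across genes, and those of different-numbered samples at -0.28 to 0.08. The numbers were therefore taken to pair the samples, and blocked values are given where they change a call. The labels do not state a pairing, so it rests on these same data. Ratios of 2 members used counts divided by merged-exon length and were compared by exact permutation (scipy 1.17.1). Alternatives were DESeq2 1.42.0, other scalings and filters, GC and length offsets, and leaving out samples.

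Values in each sample are given for members called in either fit and for the most abundant member of each role. Of the 4 further lists, genes called without the block are named, and up to 3 a direction and list called with it. Members and lists were chosen with earlier results of these data known.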

Additional observations from a re-analysis of the deposited data

How the results depend on the processing

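Hif1a was called in all 6 fits without a sample and in all 10 other alternatives, and 27 of 33 members kept their sign in every alternative run. The counts of calls depended on the fit, and the cause was not tested. Against 131 genes, 2 members and 2 further pathway genes called in the group-only fit, no low-count filter gave 329, 5 and 7, and DESeq2 gave 289, 6 and 7. The replicate block gave 1379, 18 and 23, DESeq2 with the block 551, 11 and 12, the block with GC and length trends removed 1339, 22 and 22, and the block with library totals (chosen after seeing the data) 1374, 19 and 26. GC and length removal without the block left 1 member, Hif1a.

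Leaving out one sample gave 36 to 139 genes, 1 to 2 members and 0 to 4 pathway genes. With the block, leaving out one pair (chosen after seeing the data) gave 1312, 17 and 22 without pair 1, 612, 11 and 14 without pair 2, and 1059, 15 and 21 without pair 3. DESeq2 with the block called 11 of edgeR's 18, not Hk2, Gpi1, Pfkp, Pfkfb3, Ldhb, Slc16a1 and Pdk4, and the GC and length offsets kept 17 of the 18 called with the block, losing Pfkp and adding Hk1, Aldoa, Gapdh, Eno1 and Pdk1.

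Signs changed only among uncalled members and ratios. Leaving out one sample gave log2 fold changes of -0.13 to 0.04 for Slc2a3, -0.11 to 0.07 for Pfkfb4, -0.26 to 0.02 for Epas1, -0.02 to 0.19 for Ndrg1 and -0.06 to 0.13 for Adm. Among other uncalled members it gave 0.03 to 0.09 for Egln1, 0.03 to 0.06 for Gapdh and 0.01 to 0.14 for Ankrd37. With the block, leaving out a pair gave Pfkfb4 0.05 without pair 2 and 0.01 without pair 3, and Ankrd37 -0.05 without pair 1. The ratio of Pfkm to Pfkl reached 0.01 without control replicate 3, and leaving out one sample gave -0.2 to 0.04 for that of Slc16a3 to Slc16a1, the latter without DKK1 replicate 3. With 3 samples a group, single-value exact tests cannot fall below 0.1.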
